A study of Mus musculus with 16 samples.

Results

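The guanylate-binding proteins (GBPs) and the immunity-related GTPases (IRGs) are 2 families of GTP-hydrolysing proteins that mouse cells make in large amounts after interferon. They were followed in the lungs of Fra-2 transgenic mice through 10 genes taken by symbol, with earlier results of these data known, Gbp2, Gbp3, Gbp4, Gbp5, Gbp6, Gbp7, Igtp, Irgm1, Irgm2 and Iigp1, out of 24306 named genes on the array. Fra-2, encoded by Fosl2, is a subunit of the transcription factor AP-1. The samples were homogenates of snap-frozen right lungs from mice of 8 weeks, 4 wild-type (WT) females, 4 WT males, 4 Fra-2 transgenic (TG) females and 4 TG males, each on a single-colour Agilent mouse array. TG mice had the genotype Fra-2 tg/wt and WT mice were their littermates on a C57BL6/J background. The promoter that drives the transgene is not stated in the sources used here, and the transgenic cells also carry a GFP reporter. All mice were kept under SPF conditions, and the labels name no treatment. The labels number the mice 1 to 4 within each group and name no animals, so each array was counted as 1 mouse, and all p-values measure the spread between these arrays.

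IRGs and GBPs defend cells from within. Interferon-gamma acts through the kinases JAK1 and JAK2 and on to GAS elements in the promoters of its targets, and type I interferon acts through a complex with STAT2 and IRF9 on interferon-stimulated response elements (ISREs). Effector IRGs such as Iigp1 (also called Irga6) load onto the vacuole that encloses Toxoplasma or Chlamydia and break it open, while Irgm1, Irgm2 and Igtp (also called Irgm3) sit on the membranes of the host and keep the effectors inactive there. GBPs are recruited to such vacuoles and to bacteria in the cytosol, and several of them feed into inflammasomes, the complexes that activate caspases. In lung, where resident cells meet inhaled microbes, macrophages, endothelium and epithelium can all make these proteins.

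Sequences upstream of the members were available for 7 of the 10, in windows from 250 bases before to 50 bases after the annotated start (RefSeq, GRCm38.p6). The 5 shown, those of members with an AP-1 match or a called change, are examples of how the matches lie, each printed as the 170 bases before the start, 5′ to 3′ on the strand of the gene. Capitals mark matches to the ISRE core (GAAA, any 2 bases, GAAA), the GAS pattern TTCNNNGAA and the AP-1 pattern TGANTCA, on either strand. The Gbp2 stretch (chr3:142620493-142620662, plus strand) and the Gbp5 stretch (chr3:142496764-142496933, plus strand) lie among the GBP genes of chromosome 3, and those of Irgm1 (chr11:48871421-48871590, minus strand), Igtp (chr11:58199386-58199555, plus strand) and Irgm2 (chr11:58214807-58214976, plus strand) among the IRG genes of chromosome 11.
Gbp2: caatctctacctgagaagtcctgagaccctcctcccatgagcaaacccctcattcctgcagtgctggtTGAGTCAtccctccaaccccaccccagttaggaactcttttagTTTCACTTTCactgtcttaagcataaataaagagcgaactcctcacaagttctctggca
Gbp5: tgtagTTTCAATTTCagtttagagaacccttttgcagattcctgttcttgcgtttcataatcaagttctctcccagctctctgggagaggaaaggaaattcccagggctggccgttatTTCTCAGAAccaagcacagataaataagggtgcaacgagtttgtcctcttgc
Irgm1: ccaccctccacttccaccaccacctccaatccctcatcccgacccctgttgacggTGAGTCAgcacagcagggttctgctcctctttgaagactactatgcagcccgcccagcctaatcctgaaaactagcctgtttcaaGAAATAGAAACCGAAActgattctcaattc
Igtp: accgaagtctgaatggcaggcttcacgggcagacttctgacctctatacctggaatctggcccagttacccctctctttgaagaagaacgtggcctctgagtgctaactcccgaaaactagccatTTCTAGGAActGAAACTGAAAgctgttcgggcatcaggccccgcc
Irgm2: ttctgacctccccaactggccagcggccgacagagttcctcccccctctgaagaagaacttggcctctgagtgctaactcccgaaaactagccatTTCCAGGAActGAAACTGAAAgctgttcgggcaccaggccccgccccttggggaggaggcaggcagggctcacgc

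All 7 members searched held the ISRE core, in 7 of their 8 windows (Gbp3 has a second one, with none of the patterns), against 3.443% of the 32851 windows of the table (95% Wilson interval 3.251% to 3.645%). The pattern with any 3 bases between the GAAA repeats occurred in 0 of the 8 windows and in 2.749% of all windows. The GAS pattern occurred in Gbp5, Gbp7, Igtp and Irgm2, in 4 of the 8 windows, against 8.298% of all windows. The AP-1 pattern occurred in Gbp2 (-102 to -96) and Irgm1 (-115 to -109), in 2 of the 8 windows, against 7.808% of all windows. In Irgm1 a pair of overlapping ISRE matches ran from -30 to -15, and in Igtp and Irgm2 a GAS match lay directly upstream of the ISRE match. The Igtp and Irgm2 windows were alike over most of their length, with 244 of 300 bases identical (81.3%), while no other pair of the 7 exceeded 56.3%. A match is a run of letters and not a shown binding site.

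The deposited values are log2 intensities, which order mice within 1 array feature but not different genes among each other. A feature is 1 spot of the array, and each gene is given first by its brightest feature. Arrays correlated with each other between 0.950 and 0.988. In a fit that weights arrays by how well they follow their group, the lowest weights were 0.403 for TG female 1, 0.428 for WT male 1, 0.595 for TG female 3 and 0.616 for TG female 4, and the others lay between 0.882 and 1.93. The calls of members, and the counts of gene lists, are given without TG females 1 and 4 and WT male 1 where these 3 mice, chosen with earlier results known, change them, and TG female 3 is named where it decides a call. Xist and Uty set the sexes apart as labelled. The brighter of the Fosl2 features did not pass the test (log2 fold change -0.14, adjusted p = 0.731), and the dimmer one spanned 2.39 to 4.91 in WT mice against 6.56 to 10.7 in TG mice (log2 fold change 4.77, adjusted p = 2.1e-05). Cells in a homogenate cannot be separated, so fewer cells of a type and less RNA per cell cannot be told apart. Of 12 marker genes of NK cells, 11 were lower in TG lungs, and their mean log2 level was 7.50 to 8.37 in WT mice and 4.49 to 5.21 in TG mice. Among 10 markers of monocytes and interstitial macrophages 2 were lower (Csf1r and Fcgr4, the mean level being 10.84 to 10.97 in WT and 10.09 to 10.78 in TG), among 11 of alveolar macrophages 4 were lower (10.52 to 11.39 against 10.01 to 10.81), and among 11 of lung epithelium 0 were called. Of 10 T cell markers 1 was lower, of 7 B cell markers 3 were lower and 1 higher, of 10 eosinophil and neutrophil markers 4 were lower and 1 higher, of 10 endothelial markers 4 were higher, and of 10 mesenchymal markers 1 was lower and 1 higher. Without the 3 mice 12 NK markers were lower, 1 monocyte, 3 alveolar macrophage and 1 epithelial marker were lower, 1 B cell marker was lower and 0 were higher, 2 eosinophil and neutrophil markers were lower, 5 endothelial markers were higher, and 0 mesenchymal markers were lower. With the mean of all features 1 B cell marker was lower and 0 were higher. With all mice and the brightest features, 7.08% of all genes were called lower and 6.05% higher. The part of these cells in the results below was not tested.

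Of the 10 GTPase genes, 5 fell in the TG mice at the threshold of 0.05 on the adjusted p (Igtp, Gbp6, Irgm2, Irgm1 and Iigp1), 1 was higher (Gbp5), and 4 did not pass the test (Gbp2, Gbp3, Gbp4 and Gbp7). Across the array 7.08% of genes were called lower and 6.05% higher. The median log2 fold change of the members was -0.47, against -0.03 over all genes. All IRG members were among the lower genes, while the GBP members were split between lower, higher and not called. In none of the 10 were the genotypes fully apart, a separation that 0.893% of all genes reached with TG below WT and 0.86% with TG above.

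**Figure D1:**
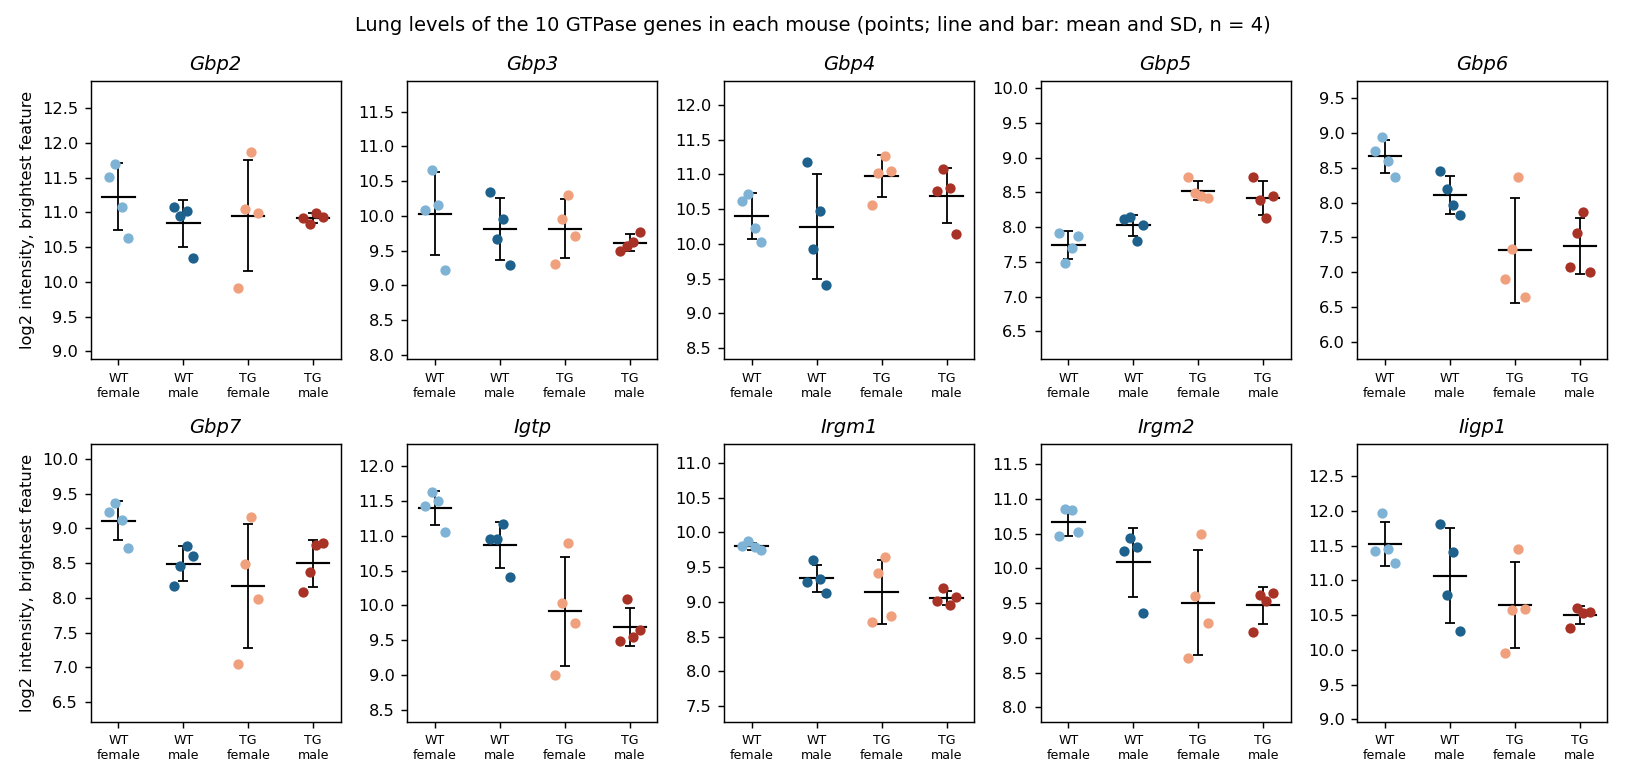
Log2 intensity of the brightest feature of each member (y axis) in each mouse (points) of the 4 groups (x axis), with the mean and SD of each group as line and bar (n = 4). Igtp lay below 10.1 in 7 of 8 TG mice and above 10.4 in all WT mice, and TG female 3 was the highest TG mouse for 9 of the 10 genes.

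Igtp, a membrane-bound regulator of the IRG system, had the lowest adjusted p of the 10. Its log2 level was 11.42, 11.64, 11.50 and 11.06 in WT females 1 to 4 and 10.95, 10.96, 11.18 and 10.40 in WT males 1 to 4. In TG females 1 to 4 it was 9.0, 10.03, 10.89 and 9.74, and in TG males 1 to 4 it was 9.49, 10.09, 9.54 and 9.64. Every TG mouse except female 3 was below every WT mouse. WT mice averaged 11.14 ± 0.39 and TG mice 9.80 ± 0.56 (SD, n = 8 each), a 2.52-fold lower level (log2 fold change -1.34, SE 0.22, adjusted p = 0.00166, limma). Without TG females 1 and 4 and WT male 1 the log2 fold change was -1.05 and still called (adjusted p = 0.00598).

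Irgm2, which resides on the Golgi apparatus and like Igtp keeps effector IRGs in check, was 1.85-fold lower. WT females had 10.47, 10.85, 10.84 and 10.52 and WT males 10.25, 10.43, 10.30 and 9.35. TG females had 8.71, 9.60, 10.50 and 9.22 and TG males 9.08, 9.61, 9.53 and 9.64. WT male 4 stood far below the other WT mice and TG female 3 far above the other TG mice, so that only 3 TG mice were below all WT mice. The log2 fold change was -0.89 (SE 0.23, adjusted p = 0.0188). It was no longer called without TG females 1 and 4 (-0.62, adjusted p = 0.0916) or without those mice and WT male 1 (-0.59, adjusted p = 0.101).

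Irgm1, the regulator whose loss in mice causes susceptibility to mycobacteria, had the smallest change of the called IRGs by its brightest feature, though not by the mean of all features (-0.57, against -0.44 for Iigp1). Its brightest feature was at 9.81, 9.87, 9.78 and 9.75 in WT females, the tightest group of any member, and at 9.29, 9.60, 9.33 and 9.13 in WT males. TG females had 8.71, 9.42, 9.64 and 8.80 and TG males 9.01, 9.20, 8.96 and 9.07. In TG females 2 and 3 and TG male 2 the level was within the WT range, and the other 5 TG mice were below all WT mice. The log2 fold change was -0.47 (SE 0.13, adjusted p = 0.0315), or 1.39-fold lower. The call was lost in 17 of 34 alternatives, 10 of them fits that left out a single mouse, with an adjusted p of 0.127 without TG females 1 and 4.

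Iigp1, the effector IRG, averaged 11.30 ± 0.55 in WT mice against 10.57 ± 0.42 in TG mice (SD, n = 8 each), 1.65-fold lower. WT mice spanned 10.27 to 11.97 with a median of 11.41, TG mice 9.96 to 11.45 with a median of 10.56. The ranges overlapped broadly, with only TG female 1 below all WT mice, WT male 4 as low as most TG mice and TG female 3 as high as most WT mice. The log2 fold change of -0.72 (SE 0.23) was close to the threshold (adjusted p = 0.0490). The call was lost in 25 of 34 alternatives, with log2 fold changes between -0.88 and -0.41, the last of these without the 3 mice (adjusted p = 0.240).

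Gbp6 was the GBP that fell. Its log2 level was 8.75, 8.94, 8.60 and 8.37 in WT females and 8.45, 8.19, 7.96 and 7.83 in WT males. It was 6.91, 7.33, 8.36 and 6.65 in TG females and 7.08, 7.56, 7.86 and 7.01 in TG males. All TG mice except female 3 and male 3 were below every WT mouse. The mean fell by 1.04 on the log2 scale, from 8.39 ± 0.38 (SD, n = 8) to 7.34 ± 0.56 (SD, n = 8) (SE 0.22, adjusted p = 0.00733), or 2.06-fold, and remained called without the 3 mice (-0.72, adjusted p = 0.0428). Gbp6 has a near-identical neighbour, Gbp10, from which a short probe may not tell it apart. The feature named for Gbp10 was dim, with means of 5.54 ± 0.57 for WT and 5.18 ± 0.81 for TG (SD, n = 8 each), and did not pass the test (log2 fold change -0.36, adjusted p = 0.490).

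Gbp5, which acts with Gbp2 in the AIM2 inflammasome response of macrophages to cytosolic Francisella, was the member that rose by its brightest feature. WT females had 7.91, 7.48, 7.71 and 7.87 and WT males 8.12, 8.15, 7.80 and 8.03. TG females had 8.72, 8.49, 8.45 and 8.42 and TG males 8.72, 8.39, 8.13 and 8.45. The TG mice except male 3 were above all WT mice, and TG male 3 was level with the highest WT males. The log2 fold change was 0.59 (SE 0.11, adjusted p = 0.00344), or 1.51-fold higher, and was 0.58 without the 3 mice (adjusted p = 0.0134).

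The other Gbp5 feature went the opposite way. It was at 7.40, 8.30, 8.00 and 7.29 in WT females and 8.62, 7.16, 8.11 and 6.90 in WT males. It was at 7.29, 7.29, 7.61 and 7.43 in TG females and at 6.61, 6.68, 6.23 and 6.67 in TG males. All TG males lay below all WT mice, and the TG females lay inside the WT range. Its log2 fold change was -0.74 (SE 0.23, adjusted p = 0.0484 over all features), and 5.45% of named features were called lower and 5.86% higher. The mean of both features gave a log2 fold change of -0.08 (adjusted p = 0.756), so the direction of Gbp5 depended on the feature. The brighter feature is annotated with a separate Gbp5 transcript record, for which the gene table lists the synonym Gbp5a, and the other with the RefSeq transcript of Gbp5. Across mice the brighter feature deviated from the group means against the 9 other members (Pearson r -0.57 to -0.14), and the other feature with them (0.07 to 0.79, median 0.44). These correlations describe 16 arrays that also share their normalization.

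**Figure D2:**
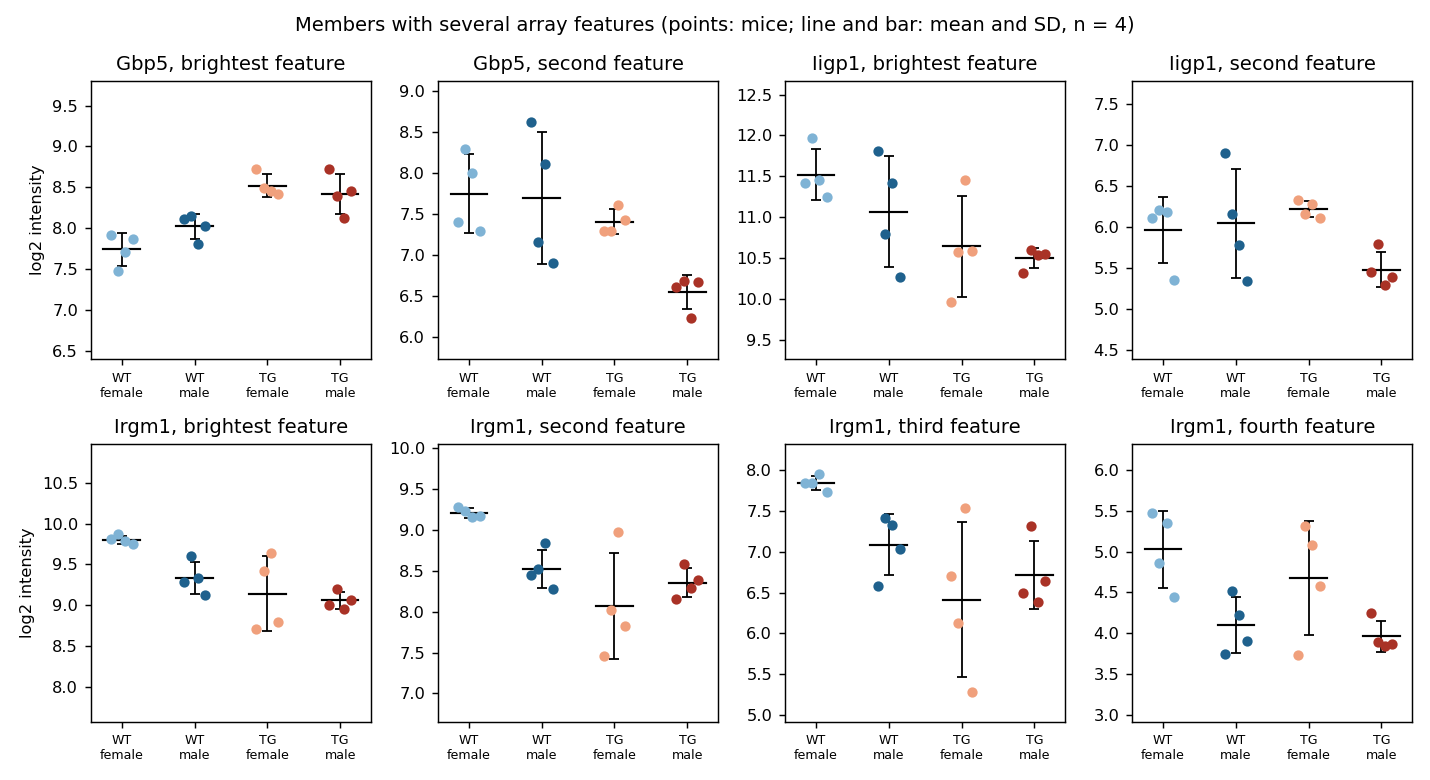
Log2 intensity (y axis) of each feature of the members with more than 1 feature, in each mouse (points) of the 4 groups (x axis), with mean and SD as line and bar (n = 4). The brightest Gbp5 feature is higher in TG mice and the second one is lowest in TG males, while the first 3 Irgm1 features are all lower in TG than in WT females on average.

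Irgm1 and Iigp1 also had several features. The next 2 Irgm1 features were lower in TG lungs as the brightest was, with log2 fold changes of -0.66 (SE 0.18, adjusted p = 0.0266) and -0.90 (SE 0.26, adjusted p = 0.0354). These were -1.14 and -1.43 in females and -0.17 and -0.37 in males. For the second feature the difference between the sexes had an unadjusted p of 0.0141 (limma, adjusted p = 0.356). The dimmest, at 4.57 ± 0.63 (SD, n = 8) in WT, did not pass (-0.24, adjusted p = 0.519). Deviations of the Irgm1 features correlated at r from 0.17 to 0.82. The second Iigp1 feature was dim, with means of 6.0 ± 0.51 for WT and 5.85 ± 0.43 for TG (SD, n = 8 each), and did not pass (-0.15, adjusted p = 0.667), and over all features the brightest one just missed the threshold (adjusted p = 0.0539). Of the 15 features of the members, 7 were lower, 1 higher and 7 not called, where 5.45% of all named features were called lower and 5.86% higher. Several of the lower features belong to the same gene, Irgm1, so they are not separate results.

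The other GBP members did not pass the test. Gbp2, one of the first GBPs to reach the Toxoplasma vacuole, spanned 10.34 to 11.70 among WT mice (median 11.05) and 9.91 to 11.87 among TG mice (median 10.97). TG females gave both ends of that range, with 9.91 in female 1 and 11.87 in female 3. The log2 fold change was -0.10 (95% interval -0.59 to 0.40, adjusted p = 0.824), and it was 0.07 without TG female 1. Gbp3 spanned 9.22 to 10.65 among WT mice (median 10.02) and 9.30 to 10.30 among TG mice (median 9.67), so that all TG mice lay inside the WT range (log2 fold change -0.21, 95% interval -0.64 to 0.23, adjusted p = 0.555). Gbp4 spanned 9.41 to 11.18 among WT mice (median 10.35) and 10.14 to 11.27 among TG mice (median 10.91), with a log2 fold change of 0.51 (95% interval 0.03 to 0.99, adjusted p = 0.152). The WT males alone spanned nearly the whole range of Gbp4, with 11.18 in male 1 and 9.41 in male 4, and without WT male 1 it was called higher (0.66, adjusted p = 0.0292). Gbp7, which helps to assemble the NADPH oxidase on phagosomes in mouse macrophages, spanned 8.17 to 9.37 among WT mice (median 8.73) and 7.05 to 9.17 among TG mice (median 8.43), with a log2 fold change of -0.47 (95% interval -0.98 to 0.04, adjusted p = 0.220). Without TG female 3 it was called lower (-0.63, adjusted p = 0.0439).

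Within females, 4 members were lower (Igtp, Gbp6, Irgm2 and Irgm1) and 1 higher (Gbp5), against 9.0% of genes called lower and 7.15% higher. Their log2 fold changes in females were -1.49 for Igtp, -1.35 for Gbp6, -1.16 for Irgm2, -0.66 for Irgm1 and 0.78 for Gbp5, with adjusted p between 0.00553 and 0.0283. Without TG females 1 and 4 none of these calls was kept, in a fit with 2 TG females left. Within males 0 of 10 were called, where 0.337% of all genes were called lower and 0.309% higher (0.646% in either direction), 3 members had an unadjusted p under 0.05, and the lowest adjusted p was 0.125 for Igtp. The male estimate for Igtp was -1.18 (95% interval -1.84 to -0.53), and for Gbp7 it was 0.00 (-0.72 to 0.73), against -0.94 in females. By the brightest features, a test of the difference between the sexes called 0 of the 10 and 0.0% of all genes. It gave 0 members at an unadjusted p under 0.05 and a lowest adjusted p of 0.415 for Gbp7. The effects were therefore not shown to differ between the sexes. Males had lower levels than females for 9 of the 10 genes by their brightest features, but none was called (0.0123% of genes in each direction and 0.0247% in either, 0 members at an unadjusted p under 0.05).

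**Figure D3:**
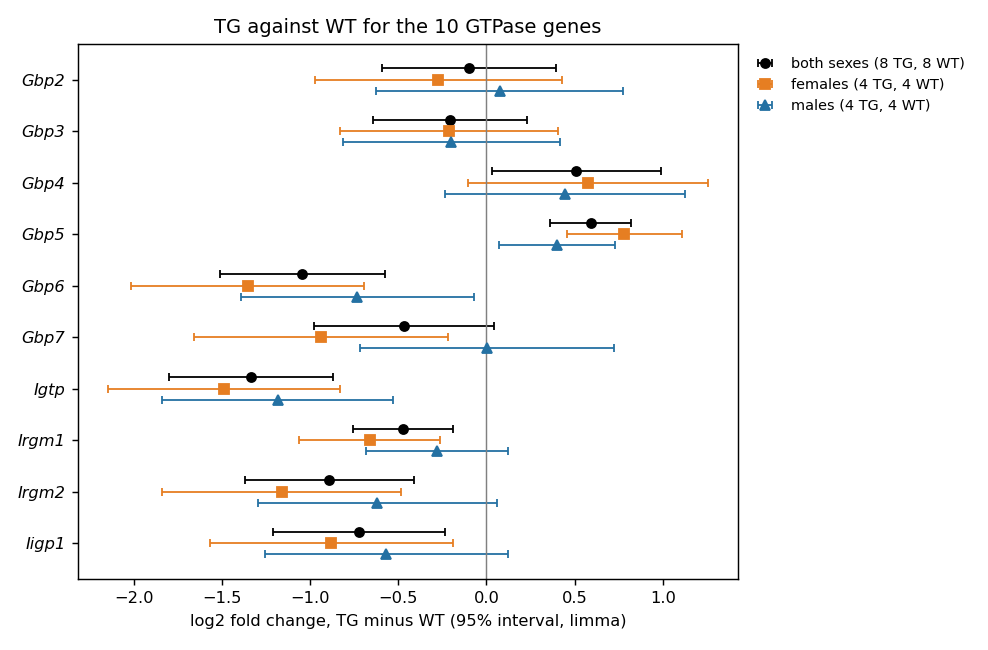
Log2 fold change, TG minus WT (x axis), with its 95% interval from limma for each member (y axis), over both sexes (8 against 8 mice), in females and in males (4 against 4 each). The intervals for Igtp and Gbp6 lie below 0 in both sexes, and those for Gbp5 above 0, before any adjustment for multiple testing.

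Within a group, the same mice tended to be high or low for most members. Correlations of the deviations from the 4 group means, over 16 mice, had a median of 0.68 across the 45 pairs of members, and 36 of the pairs were above 0. All 9 pairs with Gbp5 by its brightest feature were below 0, and the 36 pairs without it ran from 0.16 to 0.91, with Igtp and Irgm2 the closest pair at 0.91. TG female 3 was the highest of its group for 9 of the 10 genes, and TG female 1 the lowest for 8. WT female 2 was highest for 9 and WT female 4 lowest for 8, and WT male 4 was lowest for 8. In TG males no mouse led for more than 5 genes in either direction. Without TG females 1 and 4 and WT male 1 the median correlation was 0.57. All genes share the arrays, and these values are a description with no test.

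**Figure D4:**
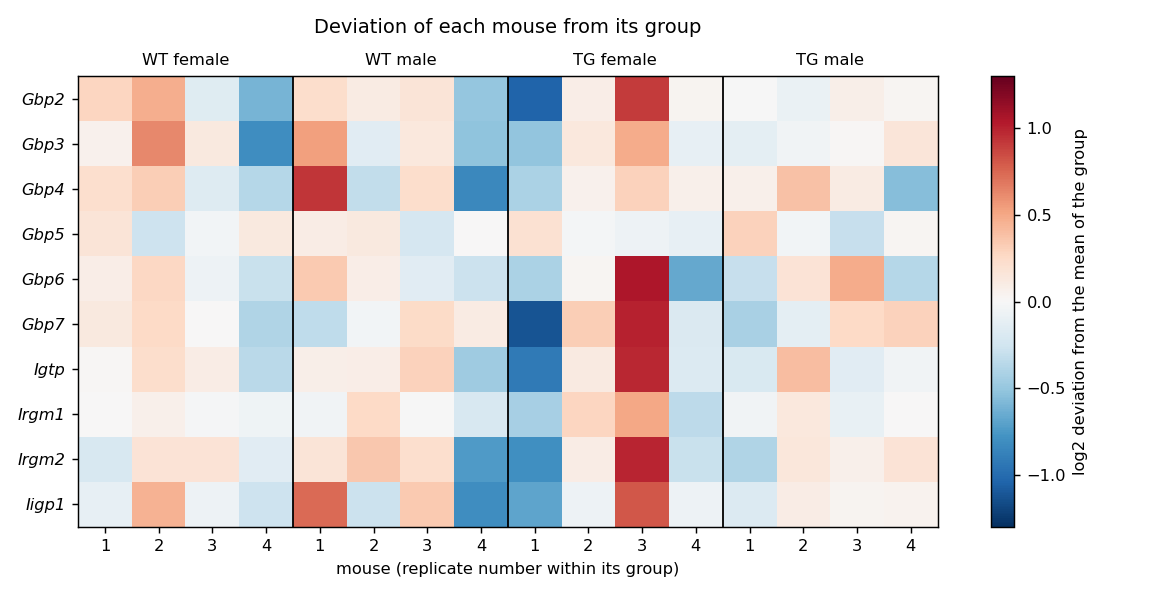
Deviation of each mouse (columns, by group and replicate number) from its group mean for each member (rows), as log2 difference on a colour scale from blue (below) to red (above). TG female 3 is red for 9 of the 10 genes and TG female 1 is blue for 9, with Gbp5 running the other way in both.

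Outside the members, the genes whose level followed the mean of the 10 scaled members most closely across the 16 mice were Gm4951 (r = 0.87), an IRG-family gene, Irf9 (0.87), a DNA-binding partner of STAT2, and Dtx3l (0.85), a ubiquitin ligase induced by interferon. Eif2s1, Cd8b1, Evi2a, Slc36a2, Dph7, Gtf2f1 and Psma7 followed, down to 0.81. After removing the group means the order was led by Dtx3l (0.89), Plac8 (0.89) and Gm9733 (0.88), and the others were Sirpb1b, S100a10, Nudcd1, Spon1, Cyfip1, Slc2a13 and Syn2, down to 0.85. Dtx3l appeared in both orders and was itself lower in TG lungs (log2 fold change -0.56, adjusted p = 0.0163), as was Plac8 (-1.08, adjusted p = 0.00595).

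The members lie on the same chromosomes as relatives, and those did not all move the same way. In family order, Gbp5, Gbp7, Gbp3, Gbp2b and Gbp2 follow each other on chromosome 3, and among these only Gbp5 was called. Gbp8, Gbp9, Gbp4, Gbp10, Gbp6 and Gbp11 follow each other on chromosome 5, where Gbp8 was lower as Gbp6 was (-0.80, adjusted p = 0.0302) and Gbp9, with means of 5.13 ± 0.38 for WT and 5.63 ± 0.31 for TG (SD, n = 8 each), did not pass (0.50, adjusted p = 0.050). On chromosome 11, between Irgm1 and Igtp, lie Tgtp2, an effector IRG, and Gm12250 (also called Irgb10), which targets bacterial membranes. Gm12250 had the largest fall of the measured family, from 7.83 ± 0.58 (SD, n = 8) to 6.16 ± 0.58 (SD, n = 8) (-1.67, adjusted p = 0.00153), and Tgtp2 fell from 12.25 ± 0.46 (SD, n = 8) to 10.98 ± 0.49 (SD, n = 8) (-1.27, adjusted p = 0.00163), each with 7 TG mice below all WT mice. Tgtp2 has a near-identical copy, Tgtp1, which was not analysed here. Also between Irgm1 and Igtp, 9930111J21Rik1 was higher in every TG mouse than in any WT mouse (0.80, adjusted p = 0.000953), as were 0.86% of all genes. F830016B08Rik, the relative just before Iigp1 in gene order, was also higher (1.32, adjusted p = 0.000603). Of the 15 other measured GBP, IRG and GVIN genes of the list, which does not hold Ifi47 (given with the interferon-gamma targets), 4 were lower (the last being Gvin1, a very large interferon-inducible GTPase, at -0.83), 2 higher and 9 not called, with a median of -0.34. With all mice, 7.08% of all genes were called lower and 6.05% higher. Without the 3 mice the counts of the list were 2 lower and 3 higher.

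Most genes that induce the family were not called, and more were lower than higher, beside 7.08% of all genes called lower and 6.05% higher. Ifng, which encodes interferon-gamma and in lung is made mainly by NK and T cells, spanned 3.91 to 6.04 among WT mice (median 5.32) and 2.70 to 4.90 among TG mice (median 3.44). In 6 TG mice it was below all WT mice (log2 fold change -1.67, SE 0.30, adjusted p = 0.00336). Ifng was dim, with both medians below the median of 5.46 over all named features. Of 14 measured genes of interferon-gamma and its signalling, Ifng, Nlrc5 (-1.10, adjusted p = 0.00842), the transactivator of MHC class I genes, and Irf8 (-0.50, adjusted p = 0.0134) were lower and 0 were higher. The 11 others did not pass, among them Irf1 (-0.15, adjusted p = 0.437), the receptor genes Ifngr1 and Ifngr2, Jak1 and Jak2, and the list median was -0.12. Of the 14, 2 were lower without the 3 mice. Of 13 genes of type I interferon signalling, Irf7 (-0.58), Ifih1 (-0.70) and Mavs (-0.37) were lower and the receptor subunit Ifnar1 was higher (0.35), with adjusted p between 0.00540 and 0.0418 and a median of -0.28. Without the 3 mice 2 were lower and 0 higher.

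Among other targets of interferon nearly all calls were lower, where 7.08% of all genes were called lower and 6.05% higher. Of 20 measured interferon-gamma targets outside the GTPase lists, 7 were lower, 1 higher and 12 not called, with a median of -0.48. The lower ones were the chemokine Cxcl10 (-1.62), the immunoproteasome subunits Psmb9 (-0.71) and Psmb8 (-0.64), the MHC class I light chain B2m (-0.90), Cd274 (-0.73), the protease inhibitor Serpina3g (-1.08) and Ifi47 (-0.86), which is itself an IRG, also called Irgd. Psmb9 and B2m were lower in every TG mouse than in any WT mouse, as were 0.893% of all genes. Upp1, an enzyme of uridine breakdown, was the higher one (1.86, adjusted p = 0.000284). Leaving out the 3 mice, 5 of the 20 were lower and 1 higher. Of 22 type I interferon targets, 9 were lower, 0 higher and 13 not called, with a median of -0.51. The lower ones included Oas2 (-1.54) and Oasl1 (-1.05) of the oligoadenylate synthetase family, both with no overlap of the genotypes, and Oas1a, Rtp4, Oasl2, Zbp1, Ifit1 and Rsad2. Without the 3 mice 5 of the 22 were lower.

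Genes that act with these GTPases are given as 2 lists. Over all genes 7.08% were called lower and 6.05% higher, and 0.893% had no overlap with TG below WT. Of 14 genes for targeting them to vacuoles, largely the conjugation machinery of autophagy, Gabarapl2, an ATG8-family protein that guides IRGs and GBPs to the vacuole, was lower (-0.46, adjusted p = 0.00688) with no overlap. Ube2l3 was also lower (-0.28) and Atg16l1, part of the complex that attaches ATG8 proteins to membranes, was higher (0.55, adjusted p = 0.0186). The 11 others, with Atg5, Atg7, Atg12 and Gabarap, did not pass. Of 12 inflammasome genes, Casp1 (-0.72, adjusted p = 0.00428), Il18 (-0.75) and Il1b (-1.63) were lower and 9 did not pass, among them Aim2 (0.78, adjusted p = 0.0707), Casp4 (0.11, adjusted p = 0.650) and Gsdmd (-0.09, adjusted p = 0.610). Casp1 was lower in every TG mouse than in any WT mouse. Without the 3 mice 2 of the 12 were lower and 1 higher.

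**Figure D5:**
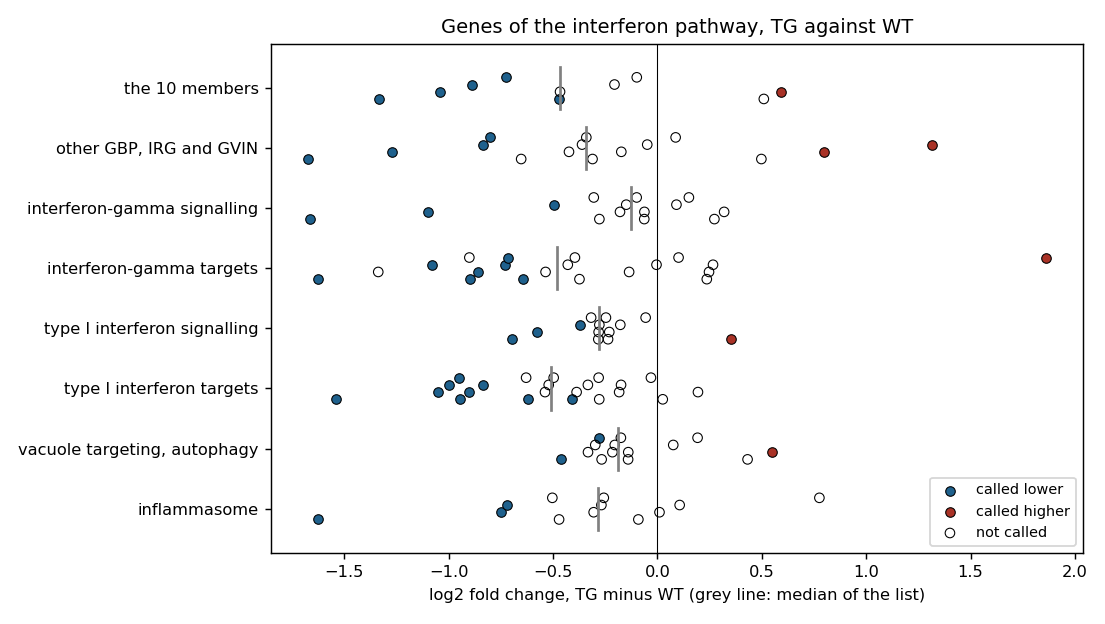
Log2 fold change, TG minus WT (x axis), of each gene of the 10 members and of 7 lists of related genes (y axis), filled where called and open where not, with the median of each list as a grey line. List medians lie between -0.51 and -0.12, and the higher calls are Gbp5, F830016B08Rik, 9930111J21Rik1, Upp1, Ifnar1 and Atg16l1.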

How the data were processed

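Lung RNA of 16 mice was hybridised to single-colour Agilent mouse arrays. The authors used limma for background correction and quantile normalization and deposited 1 log2 value for each feature and array. Which limma version, background method or spot filter they used is not given in the sources used here. Sources differ on the extraction and dye, with an RNeasy kit and Cy5 in the methods and Trizol, a column and Cy3 in the labels. As the table carries neither flags nor background signal, the number of arrays limits the precision and no feature could be called undetected.

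Features were named through the platform annotation and a RefSeq gene table (GRCm38.p6). Of 62976 features, 43941 had a symbol and formed 24306 genes, and the 19035 without one were left out. The 10 members had 15 features, and the brightest feature stood for each gene. Means of the 4 groups were fitted in limma 3.58.1 under R 4.3.3 (lmFit, contrasts.fit, eBayes), and TG was set against WT by averaging the sexes. P-values were adjusted by Benjamini-Hochberg over all genes and called under 0.05. Contrasts within each sex, their difference, and males against females came from the same fit, and single features from a fit over all named features. The fit was tested on simulated data. Promoter windows were searched on both strands with exact patterns and aligned with Biopython 1.88.

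The members, the gene lists and the alternatives were chosen with earlier results of these data known, so no list is independent evidence. All members are named. The rule for names allows up to 8 called genes of each pathway list and up to 3 of each marker list, by smallest adjusted p, of which most marker genes are left unnamed. The 10 genes most like the members by each measure among genes above the median level are named. Other genes given as not called were picked after their values were seen. Alternatives covered the design (no sex term, replicate number as block), the feature per gene, filters on dim genes, 3 normalizations, variance models, array weights, the exact Wilcoxon test, thresholds, and the mice included. Listed genes with no named feature, Tgtp1 among them, were not analysed here.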

Additional observations from a re-analysis of the deposited data

Results flagged for a closer look

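In 60 groups of 4 or 8 mice (each member in each group and in each genotype) the highest or lowest mouse was compared with the nearest other by Dixon's criterion, which flags about 1 group in 20 by chance, and 4 were flagged. WT male 4 was far below the other WT males for Gbp2 (10.34, the next being 10.95). It was also far below them for Irgm2 (9.353, the next being 10.25), where it stood apart among all 8 WT mice too. TG female 3 was far above the other TG mice for Iigp1 (11.45, the next being 10.60). Without WT male 4 or TG female 3 the direction of these 3 genes was kept.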

How the results depend on the processing

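With 8 mice per genotype, dim features and small differences were the limits of these arrays. Of the member calls, those of Igtp and Gbp6 were kept in 33 of 34 alternatives and that of Gbp5 in 32, while Irgm2 kept its call in 29, Irgm1 in 17 and Iigp1 in 9, and none of these 6 except Gbp5 changed sign. Males fitted alone gave 0 lower and 0 higher members, in a fit of 4 against 4 mice, and females alone 2 lower. Instead of 5 lower members, 3 were found with genotype alone and 2 with the exact Wilcoxon test, at an adjusted p under 0.01, and without TG females 1 and 4. Without those mice and WT male 1, 2 were lower (Igtp and Gbp6) and 2 higher (Gbp4 and Gbp5). The share of all genes called in each alternative is not given here. Counts from alternatives, with those of the lists without the 3 mice, therefore do not separate these genes from the whole array. With the mean of all features 0 were higher, both over all mice and in females. Leaving out each mouse in turn gave 3 to 6 lower and 1 to 2 higher over all mice, 2 to 6 lower in females, and 0 to 1 lower in males. The most lower calls came without TG female 3, and 2 higher ones without WT male 1. In females 0 were lower and 0 higher without TG females 1 and 4, with or without WT male 1, and in males 1 was lower with these settings, with an intensity trend in eBayes, and with array weights. The log2 fold change of Gbp2 changed sign to 0.0752 in males alone, 0.19 without the 3 mice, and 0.15 without TG females 1 and 4, and ran from -0.25 to 0.0744 when single mice were left out. That of Gbp3 was 0.0391 without the 3 mice, that of Gbp5 -0.0769 with the mean of all features, and that of Gbp7 0.0044 in males alone. The causes were not tested. Deviations of same-numbered WT and TG mice of a sex correlated between -0.048 and 0.123, and those of differently numbered ones between -0.108 and 0.127. Same-numbered mice were thus not more alike, but such weak correlations cannot exclude a pairing. With the number within sex as a replicate block 3 members were lower, and with numbers 1 to 4 as a block 4 were lower, Iigp1 being lost (adjusted p = 0.0573). The difference between the sexes and males against females gave 0 calls in every alternative run.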
